A study of Mus musculus with 19 samples.

Results

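The 9 genes described here encode the main sodium transport proteins of the kidney tubule and the WNK kinases that control them: Slc9a3, Slc12a1, Slc12a3, Scnn1a, Scnn1b, Scnn1g, Atp1b1, Wnk1 and Wnk4. They were chosen by name, as the rows of the kidney count table with these symbols, and all 9 were found among its 40413 genes. All 9 passed the filter on low counts that left 16421 genes for testing, and their counts in a library ran from 363 for Scnn1g to 118608 for Atp1b1.

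Polyadenylated RNA was sequenced from kidneys of adult mice, 1 library per animal. BPH/2J mice, a strain bred for high blood pressure, received the formylpeptide receptor agonist Cmpd17b (5 mice in the labels, 4 used) or vehicle (5 mice). BPN/3J mice, the normotensive strain bred alongside them, received Cmpd17b (5 mice) or vehicle (4 mice). Cmpd17b was given intraperitoneally at 50 mg/kg/day for 28 days, and vehicle was given once daily over the same time. The strains differ in genetic background and in blood pressure together, and these cannot be told apart. The labels give neither the sex of the mice nor the vehicle, and all libraries carry batch label 2. The labelled library numbers of the 4 groups do not interleave, and the labels do not say how they were assigned.

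From the BPH/2J Cmpd17b group, replicate 1 was left out. Myh6, a heart muscle myosin gene, was at 14200 CPM (counts scaled to the library total) against at most 28.25 CPM in the other 18 libraries, and Slc34a1, a proximal tubule phosphate transporter gene, at 5.945 CPM against 2202 CPM or more. Slc9a3, Slc12a1, Slc12a3 and the 3 Scnn1 genes were there at 0.0896% to 0.925% of their median in the other 18, Wnk4 at 7.21%, Atp1b1 at 11.3% and Wnk1 at 103%. The 18 libraries used had totals of 21400119 to 40998662 counts. The share of counts from mitochondrially encoded genes was 16.6% to 26.6% in BPH/2J Cmpd17b, 16% to 21.7% in BPH/2J vehicle, 12.8% to 15% in BPN/3J Cmpd17b and 13.2% to 16.3% in BPN/3J vehicle libraries, so that it moved with strain. The 8 heart muscle markers summed to 113 to 166 CPM in the 4 BPH/2J Cmpd17b libraries used, against 3.11 to 10.2 CPM in BPH/2J vehicle libraries and at most 7.32 CPM in any BPN/3J library. The part of these shares in the results on the 9 genes was not tested. In bulk tissue, fewer cells of a type and less RNA per cell cannot be told apart.

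Sodium is taken back from the tubular fluid segment by segment. The apical exchanger NHE3 (Slc9a3) works in the proximal tubule, the cotransporter NKCC2 (Slc12a1) in the thick ascending limb, the cotransporter NCC (Slc12a3) in the distal convoluted tubule, and the epithelial sodium channel ENaC, built from the products of Scnn1a, Scnn1b and Scnn1g, in the connecting tubule and collecting duct, while the basolateral sodium pump, of which Atp1b1 encodes the beta subunit, drives all of them. Loop diuretics block NKCC2, thiazides block NCC and amiloride blocks ENaC. WNK1 and WNK4 act through the kinases SPAK and OSR1, which phosphorylate and activate NCC and NKCC2, and mutations of both WNK genes cause hypertension with high potassium in humans. Much of this control acts on phosphorylation and trafficking of the proteins, which RNA counts do not measure.

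Per kilobase of exon, Atp1b1 stood far above the others, with a median of 902 CPM per kb over the 18 libraries (range 575 to 1220). Below Atp1b1 came Slc12a1 at a median of 116 CPM per kb (38.8 to 235), Slc12a3 at 71.2 (24.9 to 112), Wnk4 at 35.7 (27.1 to 51.3) and Slc9a3 at 28.3 (24.6 to 37.2). Wnk1 had 21.2 CPM per kb (11.1 to 26.2), Scnn1a 14.4 (11.2 to 18.7), Scnn1b 14.1 (10.6 to 24.8) and Scnn1g 11.2 (7.0 to 12.9). The range of Atp1b1 did not overlap that of Slc12a1, whereas every other neighbouring pair in this order overlapped. These levels use the exon length of each gene's protein-coding transcripts, overlapping exons counted once, from an annotation of an earlier genome build. Gene levels below are in CPM after TMM scaling and are not divided by length unless given per kilobase.

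The strain comparison asks whether the hypertensive kidney carries different levels of these transcripts, and the treatment comparison whether Cmpd17b shifts them. Under Cmpd17b, 0 of the 9 genes passed edgeR's quasi-likelihood test (adjusted p under 0.05 over all genes), where 10.4% of all tested genes did, and 0 had an unadjusted p under 0.05. Under vehicle, 0 of 9 passed against 10.8% of all genes, and 1, Scnn1a, had an unadjusted p under 0.05. In edgeR such an unadjusted p was found for 24.1% of all tested genes under Cmpd17b and 23.9% under vehicle. DESeq2 and limma-voom also called 0 of the 9 in either arm, with 1 and 0 unadjusted under Cmpd17b and 2 and 2 under vehicle. In either arm 0 of the 9 had ranges that separated the strains, against 12.8% of all genes under Cmpd17b and 13.6% under vehicle. With both arms averaged in the same edgeR fit, 23.6% of all genes passed and 1 member did, Scnn1a, which was lower in BPH/2J. In that averaged comparison 10.4% of all genes were called lower. The median log2 fold change of the 9 genes, BPH/2J over BPN/3J, was -0.14, beside 0.03 for all tested genes, with 7 below 0 and 2 above it.

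**Figure D1:**
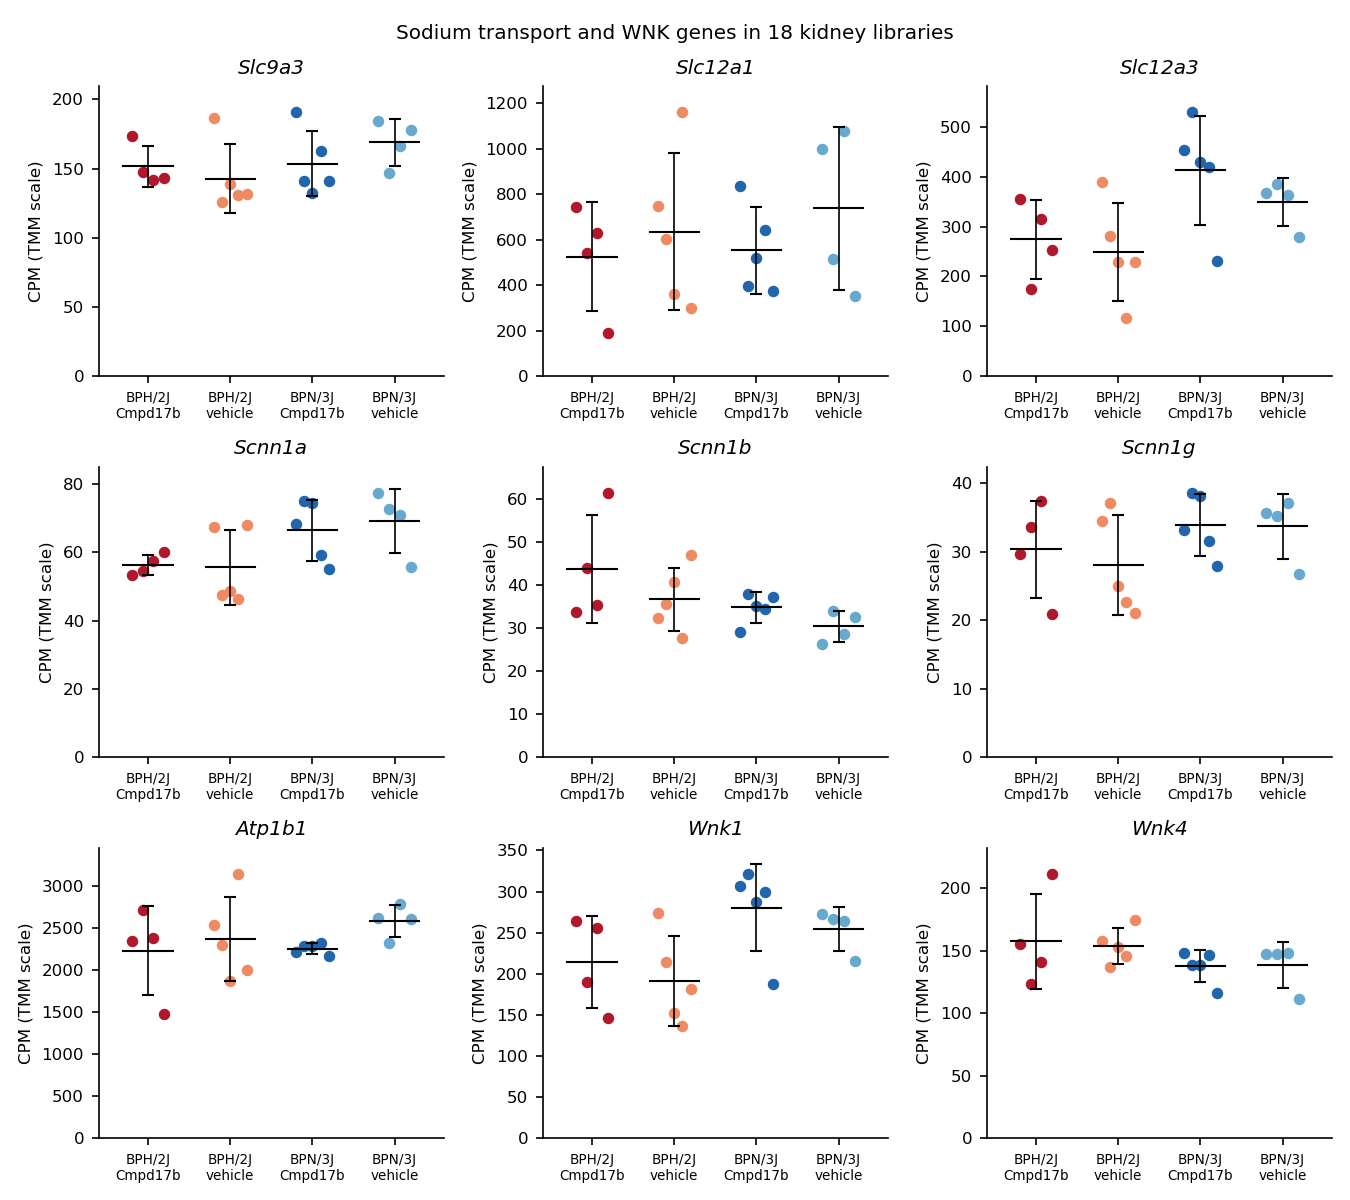
Level of each of the 9 genes in CPM after TMM scaling (vertical axes, from 0) in the 18 kidney libraries, by group: BPH/2J Cmpd17b (n = 4), BPH/2J vehicle (n = 5), BPN/3J Cmpd17b (n = 5) and BPN/3J vehicle (n = 4). Points are libraries, horizontal lines group means and bars 1 SD; the groups overlap between strains in every panel, and Slc12a1 ran from 192 to 1159 CPM.

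Slc9a3, the proximal tubule exchanger, had 174, 148, 142 and 143 CPM in BPH/2J Cmpd17b mice and 186, 126, 139, 131 and 132 CPM in BPH/2J vehicle mice. In BPN/3J it had 190.6, 141, 132.5, 162.5 and 141 CPM under Cmpd17b and 185, 147, 166 and 178 CPM under vehicle. All 4 groups overlapped, and BPH/2J vehicle replicate 1 lay apart from the other 4 of its group, which were at 139 CPM or less. Means were 152 ± 14.9 CPM in BPH/2J Cmpd17b (SD, n = 4), 143 ± 24.9 in BPH/2J vehicle (n = 5), 154 ± 23.5 in BPN/3J Cmpd17b (n = 5) and 169 ± 16.7 in BPN/3J vehicle (n = 4). The averaged log2 fold change between strains was -0.13 (SE 0.0937, edgeR adjusted p 0.321), with a 95% interval of 0.797 to 1.05 for the fold. The genes most like it across mice, after group means were removed, were Ankrd17, Lig3 and Sec16a (Pearson's r 0.89 to 0.90 over 18 libraries, with no test). Markers of its segment overlapped between the strains too: the 8 proximal tubule markers summed to 11800 to 12600 CPM in BPH/2J Cmpd17b, 8440 to 12700 in BPH/2J vehicle, 12300 to 13600 in BPN/3J Cmpd17b and 11300 to 14600 in BPN/3J vehicle, although Cubn and Slc22a6 passed the averaged test, both lower in BPH/2J.

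Slc12a1, the loop diuretic target, had 742, 541, 629.9 and 192 CPM in BPH/2J Cmpd17b mice and 749, 605, 359.7, 1159 and 301 CPM in BPH/2J vehicle mice. Its values in BPN/3J were 837, 397, 520.4, 642 and 373 CPM under Cmpd17b and 999.9, 516, 1079 and 355 CPM under vehicle. The highest library, BPH/2J vehicle replicate 4, and the lowest, BPH/2J Cmpd17b replicate 5, both came from BPH/2J, and every group spread by 2.25 times or more between its ends. The biological coefficient of variation of Slc12a1 within groups was 0.433, higher than that of 99% of the 500 genes nearest to it in level, whereas the other 8 members stood at 42.8% to 86.2%. The strain differences were -0.07 under Cmpd17b (SE 0.423) and -0.22 under vehicle (SE 0.422) on the log2 scale, with edgeR adjusted p of 0.934 and 0.785. The 95% interval of the vehicle fold ran from 0.466 to 1.59. Its sign under vehicle turned to 0.17 without the 3 libraries that had the lowest TMM factors (BPH/2J Cmpd17b replicate 5 and BPH/2J vehicle replicates 3 and 5), a choice made after seeing the data.

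Within a library, Slc12a1 can be set against 6 other thick ascending limb genes, which does not depend on scaling between libraries. Its level over their geometric mean was 10.2, 7.07, 8.27 and 4.1 in BPH/2J Cmpd17b and 10.9, 9.17, 4.87, 9.75 and 4.74 in BPH/2J vehicle libraries. The same ratio was 16.5, 10.6, 10.7, 13.1 and 7.77 in BPN/3J Cmpd17b and 14.6, 10.6, 15.3 and 8.56 in BPN/3J vehicle libraries. BPH/2J libraries lay mostly below BPN/3J libraries, with overlap in both arms. The lowest ratios, 4.1, 4.74 and 4.87, were those of the 3 libraries with the lowest TMM factors. The ratio was not tested without these 3 libraries together. Each arm alone did not pass (log2 difference -0.69 under Cmpd17b and -0.68 under vehicle, exact permutation p 0.0635 and 0.127, adjusted 0.472 and 0.696 over 52 ratio tests). A test over both arms, with strain labels exchanged within each arm and chosen after the data had been seen, gave a ratio of 0.62 between BPH/2J and BPN/3J (n = 9 each, exact permutation p 0.00831, adjusted 0.027 over 13 ratios). That adjusted p ran from 0.0158 to 0.0714 with each library left out in turn, and rose above 0.05 without BPH/2J Cmpd17b replicate 5 (0.0649), BPN/3J Cmpd17b replicate 1 (0.0531) or 4 (0.0516), or BPN/3J vehicle replicate 1 (0.0682) or 3 (0.0714). The denominator moved with strain: Tmem207, Cldn16 and Ppp1r1a passed the averaged edgeR test as higher in BPH/2J (log2 fold changes 1.20, 0.48 and 0.46, adjusted p 0.00586, 0.00513 and 0.0474), while Umod, the uromodulin gene, did not (0.42, adjusted p 0.173). Without Tmem207 among the markers the log2 difference was -0.55 (exact permutation p 0.0379). Across mice, after group means were removed, the genes most like Slc12a1 were Erbb4, Pcsk6 and Slc16a7 (Pearson's r 0.98 to 0.99 over 18 libraries, a description with no test).

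In the distal convoluted tubule, Slc12a3, the thiazide target, had 356, 175, 314.5 and 253 CPM in BPH/2J Cmpd17b mice and 389, 282, 228, 117 and 229 CPM in BPH/2J vehicle mice. It had 453, 529, 430.3, 419.6 and 232 CPM in BPN/3J Cmpd17b mice and 367, 386, 363 and 279 CPM in BPN/3J vehicle mice. BPH/2J libraries were mostly lower, with overlap in both arms: BPN/3J Cmpd17b replicate 5 lay among the BPH/2J values, and BPH/2J vehicle replicate 1 was above every BPN/3J vehicle mouse. The means were 275 ± 78.7 CPM in BPH/2J Cmpd17b (SD, n = 4), 249 ± 98.5 in BPH/2J vehicle (n = 5), 413 ± 110 in BPN/3J Cmpd17b (n = 5) and 349 ± 47.8 in BPN/3J vehicle (n = 4). Averaged over the arms the log2 fold change was -0.54 (SE 0.197), a fold of 0.689 with a 95% interval of 0.518 to 0.918, and edgeR's adjusted p of 0.0556 missed the threshold. DESeq2 (adjusted p 0.0252) and limma-voom (adjusted p 0.0464) called it, as did edgeR in 4 of 18 refits with a library left out (adjusted p 0.0157 to 0.0499).

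Wnk1 had 264, 190.6, 256 and 147 CPM in BPH/2J Cmpd17b mice and 274, 214, 152, 136 and 181 CPM in BPH/2J vehicle mice. Its values in BPN/3J were 306.5, 321, 287, 299.6 and 188 CPM under Cmpd17b and 272, 267, 264 and 215 CPM under vehicle. The pattern was close to that of Slc12a3: BPH/2J mice were mostly lower, while BPN/3J Cmpd17b replicate 5 and BPN/3J vehicle replicate 4 lay below the rest of their groups. Both libraries had the lowest TMM factor of their group (0.971 and 0.936) and its highest mitochondrial share (15% and 16.3%). The part of this in their values was not tested. The averaged log2 fold change was -0.40 (SE 0.147, fold 0.758, 95% interval 0.612 to 0.939), with an edgeR adjusted p of 0.0563, 0.0299 in DESeq2 and 0.044 in limma-voom. Like Slc12a3, it passed in 4 of 18 refits with a library left out (edgeR adjusted p 0.0146 to 0.0451). The kidney makes a short form of WNK1 that lacks most of the kinase domain, chiefly in the distal convoluted tubule, and a count per gene does not separate it from the long form.

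Wnk4, the WNK kinase best known for control of NCC, had 155, 123, 141 and 211 CPM in BPH/2J Cmpd17b mice and 158, 137, 153, 146 and 175 CPM in BPH/2J vehicle mice. In BPN/3J mice the values were 148, 138.5, 139, 147 and 116 CPM under Cmpd17b and 148, 148, 148 and 111 CPM under vehicle. The groups overlapped, and BPH/2J Cmpd17b replicate 5 held the highest value of all. Wnk4 averaged 158 ± 37.9 CPM in BPH/2J Cmpd17b (SD, n = 4), 154 ± 14.2 in BPH/2J vehicle (n = 5), 138 ± 12.9 in BPN/3J Cmpd17b (n = 5) and 139 ± 18.2 in BPN/3J vehicle (n = 4). The averaged log2 fold change was 0.17 (SE 0.0984, edgeR adjusted p 0.211). So the signs of the fitted differences were positive for Wnk4 and negative for Slc12a3 and Wnk1, and none of the 3 passed edgeR's test.

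Some other distal genes moved with strain beside these values. The 6 distal convoluted tubule markers summed to 170 to 222 CPM in BPH/2J Cmpd17b and 115 to 236 CPM in BPH/2J vehicle libraries, against 275 to 402 CPM in BPN/3J Cmpd17b and 290 to 323 CPM in BPN/3J vehicle libraries. The strains did not overlap in this sum, of which Tmem52b was the largest part in every library. Each of the other markers in the sum overlapped between the strains. Tmem52b, among these markers, was at 117 ± 35.1 CPM in BPH/2J Cmpd17b (SD, n = 4) and 110 ± 33.1 in BPH/2J vehicle (n = 5), against 245 ± 41.7 in BPN/3J Cmpd17b (n = 5) and 223 ± 13.1 in BPN/3J vehicle (n = 4). Tmem52b and Cnnm2 passed the averaged edgeR test as lower in BPH/2J, while Pvalb, the parvalbumin gene of the early distal convoluted tubule, was at a log2 fold change of -0.10 (adjusted p 0.749). Of the 3 connecting tubule markers, Calb1 (calbindin, averaged log2 fold change -0.59, edgeR adjusted p 0.00227) and Slc8a1 were lower, and Trpv5 had -0.40 (adjusted p 0.0719). The part of these marker levels in the values of Slc12a3, Wnk1 and Wnk4 was not tested beyond the ratios that follow.

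Per library, Wnk4 over the geometric mean of the 6 distal convoluted tubule markers was 8.16, 6.67, 7.29 and 11 in BPH/2J Cmpd17b and 7.41, 7.59, 7.62, 13.3 and 9.31 in BPH/2J vehicle libraries. The ratio was 6.3, 4.79, 5.49, 5.88 and 4.85 in BPN/3J Cmpd17b and 6.48, 6.57, 6.78 and 4.51 in BPN/3J vehicle libraries. Every BPH/2J library lay above every BPN/3J library of the same arm. The log2 differences were 0.58 under Cmpd17b and 0.55 under vehicle (exact permutation p 0.00794, the smallest that these group sizes allow, and 0.0159), but neither passed after adjustment over 52 tests (0.413 each). Over both arms, in the test chosen after seeing the data, the ratio was 1.48 times higher in BPH/2J (n = 9 each, exact permutation p 6.3e-05, adjusted 0.000819), and it passed in all 18 refits with a library left out. With any 1 of the 6 markers left out the log2 difference stayed between 0.43 and 0.63 (exact permutation p 6.3e-05 to 0.000504), the lowest without Tmem52b. Slc12a3 over the same markers gave 0.884 between BPH/2J and BPN/3J (exact permutation p 0.297, adjusted 0.429), and its sign turned when the markers were summed (log2 difference 0.19).

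Wnk1 over Wnk4, a ratio between the kinase genes, was 1.7, 1.55, 1.81 and 0.694 in BPH/2J Cmpd17b and 1.73, 1.56, 0.993, 0.931 and 1.04 in BPH/2J vehicle libraries. In BPN/3J the ratio was 2.07, 2.32, 2.07, 2.04 and 1.62 under Cmpd17b and 1.84, 1.81, 1.78 and 1.93 under vehicle. Under vehicle the strains did not overlap, and under Cmpd17b they overlapped through BPN/3J Cmpd17b replicate 5. The log2 differences were -0.58 under Cmpd17b and -0.60 under vehicle (exact permutation p 0.0317 and 0.0476, adjusted 0.413 and 0.472). In the test over both arms, chosen after seeing the data, the fold was 0.664 (n = 9 each, exact permutation p 0.00126, adjusted 0.00819). It passed in all 18 refits with a library left out. The values 0.694, 0.993 and 1.04 were those of the 3 libraries with the lowest TMM factors. The ratio was not tested without these 3 libraries together. In the averaged strain comparison of single genes 36.3% of all tested genes had an unadjusted p under 0.05.

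**Figure D2:**
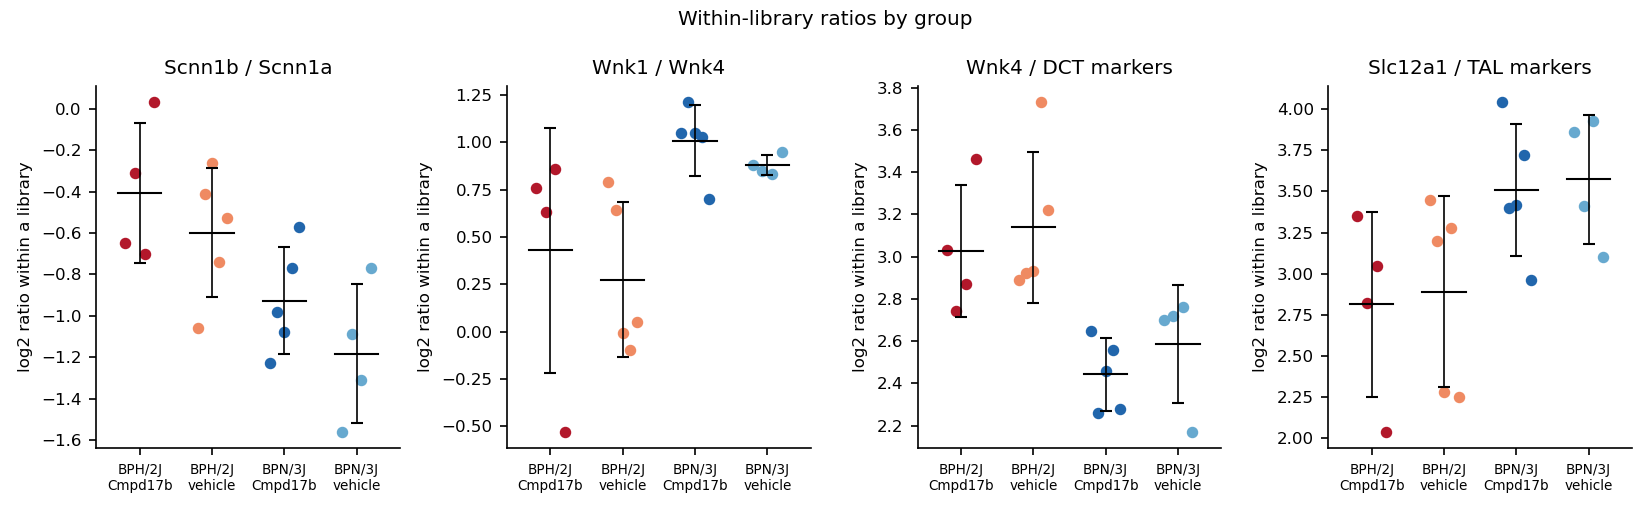
Log2 of 4 ratios within each library (vertical axes) by group: Scnn1b over Scnn1a, Wnk1 over Wnk4, Wnk4 over the geometric mean of 6 distal convoluted tubule (DCT) markers, and Slc12a1 over that of 6 thick ascending limb (TAL) markers. Points are libraries, lines group means and bars 1 SD; the strains do not overlap within either arm for Wnk4 over its segment's markers, and overlap in at least 1 arm for the other 3.

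Slc12a3 and Wnk1 followed each other across mice of the same group. After group means were removed, Pearson's r was 0.85 over the 18 libraries (permutation p 0.00037, adjusted 0.00222 over 6 pairs) and Spearman's rho 0.94 (permutation p 1e-05, the smallest that the permutations can give, adjusted 6e-05). Without the 2 libraries farthest from the median in Slc12a3, BPH/2J vehicle replicate 4 and BPN/3J Cmpd17b replicate 5, r was 0.78. Slc12a3 and Wnk4 had an r of 0.39 and Wnk1 and Wnk4 of 0.06 (permutation p 0.118 and 0.86, adjusted 0.276 and 0.86). Klhl3, which encodes the adaptor that marks WNK kinases for degradation, was the gene most like Slc12a3 among 9303 compared, with an r of 0.93, followed by Cdk16 and Chd3. The genes most like Wnk1 were Inpp5b, Slc10a5 and Dgkd (r 0.95 to 0.96), and Capn15 (0.91) and Sidt2 (0.89) were among those most like Wnk4. These libraries share 1 tissue piece per mouse, its segment makeup and its depth, and the likeness values are a description with no test. The permutation tests are against no correlation and do not show that Slc12a3 and Wnk1 are closer than other pairs. Slc12a3 and Wnk1 each had a higher r with the genes named as most like them. BPN/3J Cmpd17b replicate 5 and BPN/3J vehicle replicate 4, lowest of their groups in both genes, also had the lowest TMM factors there. In BPH/2J vehicle mice the lowest, replicate 4, did not. The part of TMM factor and mitochondrial share in the correlation was not tested.

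**Figure D3:**
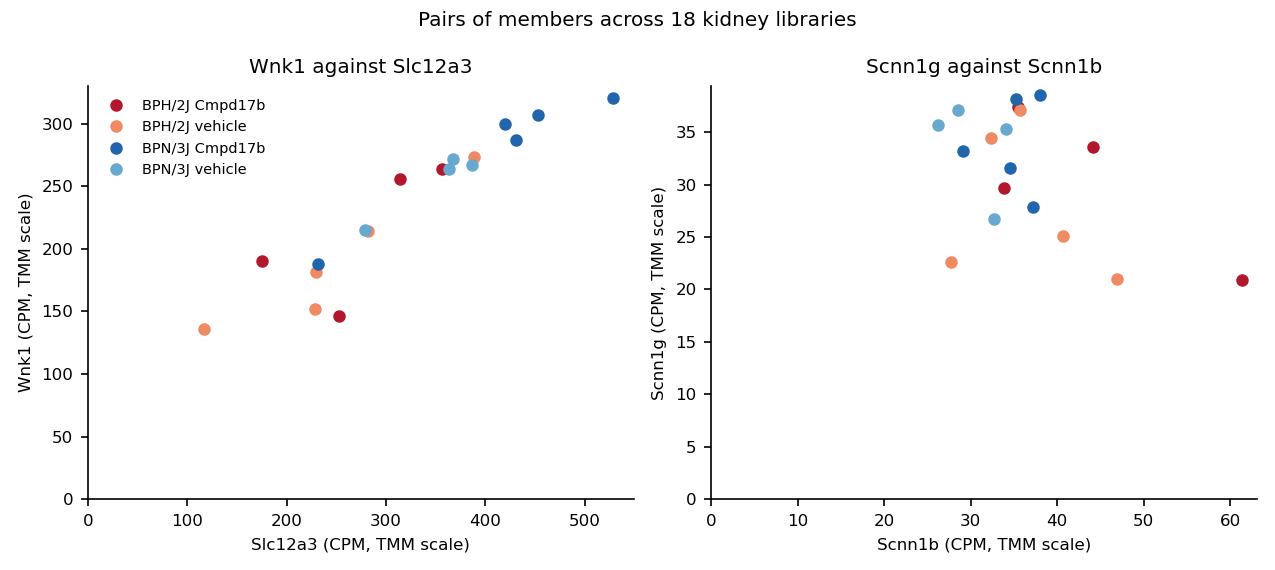
Left, Wnk1 against Slc12a3 and right, Scnn1g against Scnn1b, all in CPM after TMM scaling, with 1 point per library (n = 18) coloured by group. Wnk1 and Slc12a3 follow each other across all groups, while Scnn1g is lowest, at 20.9 CPM, in the library where Scnn1b is highest, at 61.4 CPM.

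The promoters of this pair are shown because their transcripts moved together. They run from 250 bases before to 50 after the gene's start, from RefSeq (GRCm38.p6, an earlier build than the GRCm39 of the study), which held 8 of the 9 genes; Scnn1a was not matched. The Slc12a3 promoter lies at chr8:94328958-94329257 on the plus strand and the Wnk1 promoter at chr6:120038606-120038905 on the minus strand. Capitals mark the motif TATAAA. The search also covered AGGTCA, and, as a further motif, AGAACA, all on both strands.
Slc12a3: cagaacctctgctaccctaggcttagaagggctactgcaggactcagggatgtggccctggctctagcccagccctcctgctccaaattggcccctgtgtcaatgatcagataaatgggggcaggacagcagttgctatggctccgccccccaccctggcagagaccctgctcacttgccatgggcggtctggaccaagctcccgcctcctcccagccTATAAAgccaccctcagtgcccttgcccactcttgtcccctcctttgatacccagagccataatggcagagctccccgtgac
Wnk1: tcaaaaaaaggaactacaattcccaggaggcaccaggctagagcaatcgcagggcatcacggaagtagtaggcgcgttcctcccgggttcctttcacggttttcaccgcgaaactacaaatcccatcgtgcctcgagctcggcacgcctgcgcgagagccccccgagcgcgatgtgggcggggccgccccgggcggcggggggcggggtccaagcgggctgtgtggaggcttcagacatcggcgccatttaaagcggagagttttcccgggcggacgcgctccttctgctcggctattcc
Slc12a3 held TATAAA 32 bases before its start, as did 13.6% of all 32851 promoters somewhere in the window, and Wnk1 held none of the 3 motifs. The windows differ in composition, with 32 CpG dinucleotides in that of Wnk1 and 4 in that of Slc12a3, against a median of 7 over all promoters. A match is a description of letters and not of a bound site. A count per gene does not show whether its transcripts, the short form of Wnk1 among them, began in the window shown.

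For the sodium channel, Scnn1a, the alpha subunit needed for channel function, had 53.3, 54.7, 57.4 and 60 CPM in BPH/2J Cmpd17b mice and 67.4, 47.6, 48.7, 46.2 and 67.9 CPM in BPH/2J vehicle mice. Its levels in BPN/3J were 68.4, 75.0, 74.4, 59.1 and 55.1 CPM under Cmpd17b and 77.2, 72.7, 71.0 and 55.6 CPM under vehicle. The strains overlapped in both arms: BPN/3J Cmpd17b replicates 4 and 5 and BPN/3J vehicle replicate 4 lay among the BPH/2J mice. Scnn1a averaged 56.3 ± 2.98 CPM in BPH/2J Cmpd17b (SD, n = 4), 55.6 ± 11.1 in BPH/2J vehicle (n = 5), 66.4 ± 8.98 in BPN/3J Cmpd17b (n = 5) and 69.1 ± 9.39 in BPN/3J vehicle (n = 4). The averaged log2 fold change of -0.28 (SE 0.0985) passed narrowly in edgeR (adjusted p 0.0493), a fold of 0.826 with a 95% interval of 0.715 to 0.953. The call was lost in 13 of 18 refits with a library left out (adjusted p 0.0507 to 0.102) and held without BPH/2J vehicle replicate 1 or 5, BPN/3J Cmpd17b replicate 4 or 5, or BPN/3J vehicle replicate 4. DESeq2 and limma-voom called it too (adjusted p 0.0265 and 0.0496), and edgeR without the filter on low counts did not (0.058).

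Scnn1b, the beta subunit, had 33.9, 44.1, 35.5 and 61.4 CPM in BPH/2J Cmpd17b mice and 32.4, 35.7, 40.7, 27.7 and 46.9 CPM in BPH/2J vehicle mice. In BPN/3J mice it had 29.1, 38.1, 35.2, 34.6 and 37.2 CPM under Cmpd17b and 26.3, 34.1, 28.6 and 32.7 CPM under vehicle. The groups overlapped, and the highest 3 values were all in BPH/2J. The averaged log2 fold change was 0.30 (SE 0.12, fold 1.23, 95% interval 1.03 to 1.46), and edgeR's adjusted p of 0.081 missed the threshold. It passed without BPH/2J Cmpd17b replicate 2 (edgeR adjusted p 0.0417) and without BPH/2J vehicle replicate 4 (0.0456).

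Scnn1g, the gamma subunit, had 29.6, 33.6, 37.5 and 20.9 CPM in BPH/2J Cmpd17b mice and 34.5, 37.1, 25.1, 22.6 and 21 CPM in BPH/2J vehicle mice. The BPN/3J values were 33.2, 38.5, 38.1, 31.5 and 27.9 CPM under Cmpd17b and 35.7, 35.3, 37.1 and 26.7 CPM under vehicle. The 4 lowest libraries were BPH/2J, and the rest of that strain lay within the BPN/3J range. The averaged log2 fold change was -0.21 (SE 0.13, edgeR adjusted p 0.255, 95% interval of the fold 0.716 to 1.05).

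The 3 channel genes therefore did not share a sign, and their proportions within a library were compared. Scnn1b over Scnn1a was 0.636, 0.807, 0.618 and 1.02 in BPH/2J Cmpd17b and 0.481, 0.751, 0.835, 0.6 and 0.691 in BPH/2J vehicle libraries. The ratio was 0.426, 0.508, 0.473, 0.585 and 0.675 in BPN/3J Cmpd17b and 0.34, 0.469, 0.403 and 0.588 in BPN/3J vehicle libraries. BPH/2J libraries were mostly higher, with overlap in both arms. Within an arm the log2 differences were 0.52 under Cmpd17b and 0.58 under vehicle (exact permutation p 0.0556 and 0.0317, adjusted 0.472 and 0.413). In the test over both arms, chosen after seeing the data, the ratio was 1.46 times higher in BPH/2J (n = 9 each, exact permutation p 0.00208, adjusted 0.00901). It passed in all 18 refits with a library left out, and was not tested without the 3 libraries of lowest TMM factor together. Scnn1g over Scnn1b had a fold of 0.703 (exact permutation p 0.0304, adjusted 0.0789) and passed without BPH/2J Cmpd17b replicate 4 (adjusted 0.0262) or BPH/2J vehicle replicate 1 (0.0498). Scnn1g over Scnn1a was close to even between strains, with a fold of 1.03 (exact permutation p 0.806).

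Among mice of the same group, the 3 pairs of channel genes did not pass the correlation test. Scnn1b and Scnn1g had an r of -0.46 and a rho of -0.37 (permutation p 0.138 and 0.205, adjusted 0.276 and 0.543), Scnn1a and Scnn1b an r of 0.17, and Scnn1a and Scnn1g an r of 0.25. Tysnd1, Stxbp2 and Fam151a were the genes most like Scnn1b (r 0.94 to 0.95), Ppp1r21, Cmtm6 and Plaa those most like Scnn1g (0.93 to 0.95), and Myo19, Slc4a2 and Mapk14 those most like Scnn1a (0.79 to 0.80). The library with the highest Scnn1b and the lowest Scnn1g, BPH/2J Cmpd17b replicate 5, also had the highest mitochondrial share of the 18 at 26.6% and the lowest TMM factor at 0.811. Without that library the log2 difference of Scnn1b over Scnn1a was 0.48 over both arms (exact permutation test, adjusted p 0.0209) and 0.37 under Cmpd17b (adjusted p 0.546). The 7 principal cell markers summed to 401 to 604 CPM in BPH/2J Cmpd17b and 467 to 780 CPM in BPH/2J vehicle, against 319 to 442 CPM in BPN/3J Cmpd17b and 377 to 594 CPM in BPN/3J vehicle libraries, and Aqp2, the vasopressin-regulated water channel gene, was the 1 of the 7 that passed the averaged edgeR test, as higher in BPH/2J. Over both arms, in the test chosen after seeing the data, Scnn1a, Scnn1b and Scnn1g over the geometric mean of these markers did not pass. Their log2 differences were -0.31, 0.24 and -0.27 (exact permutation p 0.102, 0.297 and 0.182, adjusted 0.221, 0.429 and 0.339). Against the sum of the markers, Scnn1a (-0.60, adjusted p 0.0045) and Scnn1g (-0.55, adjusted p 0.0352) passed that test. Aqp2 was the largest part of the sum in every library. Without Aqp2 in the geometric mean, the log2 differences of Scnn1a and Scnn1g were -0.22 and -0.18 (exact permutation p 0.259 and 0.368).

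The promoters of Scnn1b and Scnn1g, which both lie on mouse chromosome 7, are shown because both encode subunits of the channel. That of Scnn1b is chr7:121864788-121865087 and that of Scnn1g chr7:121734229-121734528, both on the plus strand of GRCm38.p6, from RefSeq. Capitals mark AGGTCA read on the opposite strand, where it appears as TGACCT.
Scnn1b: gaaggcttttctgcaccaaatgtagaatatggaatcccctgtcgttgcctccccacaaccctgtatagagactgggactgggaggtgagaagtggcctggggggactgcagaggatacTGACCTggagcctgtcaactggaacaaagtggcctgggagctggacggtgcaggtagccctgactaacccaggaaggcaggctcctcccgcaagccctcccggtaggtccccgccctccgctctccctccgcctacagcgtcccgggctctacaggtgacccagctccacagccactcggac
Scnn1g: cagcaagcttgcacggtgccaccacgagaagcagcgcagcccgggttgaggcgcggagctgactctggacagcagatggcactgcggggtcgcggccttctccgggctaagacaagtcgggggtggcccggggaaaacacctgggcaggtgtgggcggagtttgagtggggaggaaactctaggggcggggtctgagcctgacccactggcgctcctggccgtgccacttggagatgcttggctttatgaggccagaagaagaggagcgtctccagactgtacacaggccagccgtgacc
Scnn1b held this motif 132 bases before its start, as did 16.3% of all promoters on either strand, and Scnn1g held none of the 3 motifs. AGAACA, a short motif of steroid receptors such as the mineralocorticoid receptor, was in 19% of all promoters and in none of the 8 windows; nothing about the receptor follows from that.

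Atp1b1, the beta subunit of the sodium pump, had 2347, 2716, 2391 and 1482 CPM in BPH/2J Cmpd17b mice and 2546, 2301, 1879, 3144 and 2001 CPM in BPH/2J vehicle mice. It had 2217, 2288, 2293, 2328 and 2168 CPM in BPN/3J Cmpd17b mice and 2623, 2328, 2796 and 2611 CPM in BPN/3J vehicle mice. BPH/2J mice as a whole enclosed the BPN/3J range, and the BPN/3J Cmpd17b mice were the tightest of all, at 2260 ± 64.8 CPM (SD, n = 5). The averaged strain difference was -0.07 on the log2 scale (SE 0.114, edgeR adjusted p 0.677). Gpbp1 and Ppp1cb were among the genes most like Atp1b1 across mice (r 0.95 and 0.93).

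**Figure D4:**
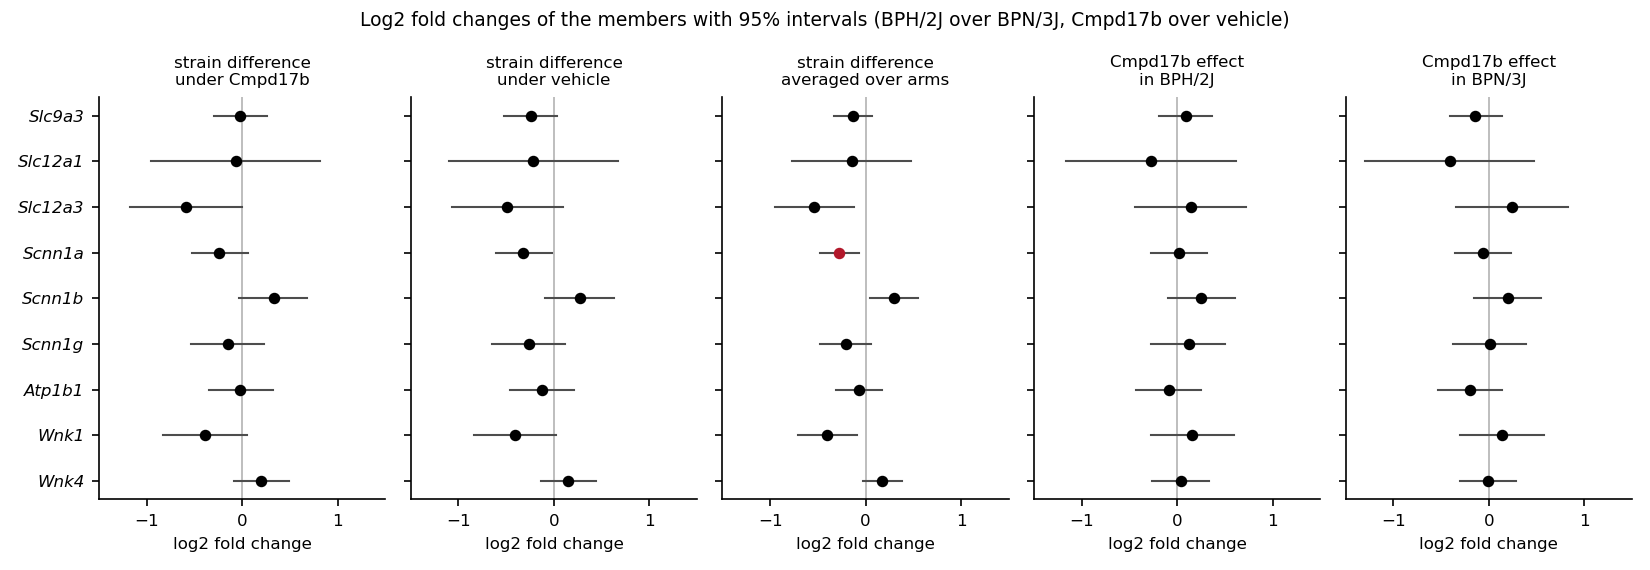
Log2 fold changes of the 9 genes (points) with 95% intervals (lines) from the edgeR fit, BPH/2J over BPN/3J in the left 3 panels and Cmpd17b over vehicle in the right 2. Red marks the single call, Scnn1a averaged over arms at -0.28; every interval of the Cmpd17b panels crosses 0, and Slc12a1 has the widest.

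Cmpd17b was compared with vehicle within each strain. In BPH/2J 0 of the 9 genes passed edgeR's test, where 0.164% of all genes did. An unadjusted p under 0.05 was found for 0 of 9, beside 3.7% of all genes. Of the 8 heart muscle markers, 7 were among the genes called in BPH/2J and again averaged over strains, and 4 in the interaction. In BPN/3J 0 of 9 passed beside 0% of all genes, again with 0 unadjusted, beside 2.53% of all genes. DESeq2 and limma-voom called 0 of 9 in both strains, with 0 unadjusted each. The log2 fold changes, Cmpd17b over vehicle, ran from -0.27 for Slc12a1 to 0.25 for Scnn1b in BPH/2J, and from -0.41 for Slc12a1 to 0.24 for Slc12a3 in BPN/3J. The 95% intervals were narrowest on the log2 scale for Slc9a3, whose fold lay between 0.876 and 1.29 in BPH/2J and between 0.75 and 1.1 in BPN/3J. They were widest for Slc12a1, between 0.447 and 1.54 in BPH/2J and 0.407 and 1.39 in BPN/3J. A missed threshold does not show that the compound left these levels the same. Averaged over strains, 0 of 9 passed, beside 0.067% of all genes, and 0 had an unadjusted p under 0.05, beside 3.43%. Scnn1b came nearest, at 0.22 (SE 0.12, fold 1.17, 95% interval 0.98 to 1.39, edgeR adjusted p 1). The interaction of strain and compound passed for 0 of 9, beside 0.0304% of all genes, with 0 unadjusted, beside 3.22%. No difference of the compound's effect between strains was thus detected, and the largest interaction was 0.22 for Slc9a3 (SE 0.187, edgeR adjusted p 1). Atp1b1 in BPN/3J was the only member whose ranges separated Cmpd17b from vehicle, with 2168 to 2328 CPM under Cmpd17b and 2328 to 2796 CPM under vehicle, the ends that meet being equal to 4 digits. Such a separation was found for 1.78% of all genes in BPN/3J, 0.755% as lower under Cmpd17b, and in BPH/2J for 0.932% of all genes and 0 of the 9, and the fold for Atp1b1 was 0.872 (95% interval 0.691 to 1.1, edgeR adjusted p 1).

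The other genes of the pathway came from 6 lists with 66 symbols, of which 63 were in the table and tested; the remaining 3 are other names of genes in the lists. edgeR called 6 of the 63 in the strain comparison under Cmpd17b (9.52%), 2 higher and 4 lower in BPH/2J, and 8 under vehicle (12.7%), 4 higher and 4 lower, close to the shares of all genes. Under vehicle this count was 13 without BPH/2J Cmpd17b replicate 5, 6 without BPN/3J vehicle replicate 3 and 14 without the 3 libraries of lowest TMM factor. Averaged over arms 16 were called (25.4%), 7 higher and 9 lower. For Cmpd17b against vehicle in either strain, averaged over strains, and for the interaction, 0 of 63 were called by edgeR, and the fitted log2 changes within strains of those named here ran from -0.65 to 0.52.

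Among the 10 genes of the WNK cascade, Wnk2 stood out. It had 13.4, 11.1, 11.7 and 10.2 CPM in BPH/2J Cmpd17b and 15.8, 10.3, 9.78, 5.65 and 8.61 CPM in BPH/2J vehicle mice, against 4.31, 2.52, 2.15, 3.29 and 2.41 CPM in BPN/3J Cmpd17b and 3.73, 2.64, 3.32 and 2.81 CPM in BPN/3J vehicle mice. The strains did not overlap in either arm. Its log2 fold changes were 1.98 under Cmpd17b (SE 0.246, edgeR adjusted p 1.87e-05) and 1.68 under vehicle (SE 0.252, adjusted p 0.000187). Per kilobase of exon, Wnk2 had a median of 0.685 CPM over the 18 libraries, against 21.2 for Wnk1 and 35.7 for Wnk4. Cul3, the scaffold of the ligase that degrades WNK kinases, was lower under vehicle (-0.38, edgeR adjusted p 0.0268, lost in 6 of 18 refits) and averaged over arms (-0.35, adjusted p 0.00203), and Cab39, which encodes a protein that activates SPAK and OSR1, was lower averaged over arms (-0.28, adjusted p 0.012). Oxsr1, the gene of OSR1 itself, was at -0.05 (adjusted p 0.696), Cab39l at -0.01, and the potassium channel genes Kcnj10 and Kcnj16 at -0.28 and -0.07.

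Other transporters differed by strain as well. Slc12a2, the cotransporter NKCC1 of basolateral membranes, had 67.3, 82.8, 56.5 and 53.3 CPM in BPH/2J Cmpd17b and 70.2, 67.95, 60.4, 58.6 and 45.2 CPM in BPH/2J vehicle mice, against 25.7 to 33.9 CPM in BPN/3J Cmpd17b and 26.4 to 32 CPM in BPN/3J vehicle mice. The strains were apart in both arms, with log2 fold changes of 1.19 under Cmpd17b (SE 0.143, edgeR adjusted p 1.32e-05) and 1.05 under vehicle (SE 0.146, adjusted p 8.38e-05). Slc12a7, the potassium-chloride cotransporter KCC4, went the other way, with 72.6 ± 3.17 CPM in BPH/2J Cmpd17b (SD, n = 4) and 78.4 ± 13.1 in BPH/2J vehicle (n = 5), against 158 ± 6.88 in BPN/3J Cmpd17b (n = 5) and 163 ± 9.1 in BPN/3J vehicle (n = 4). Its log2 fold changes were -1.12 under Cmpd17b (edgeR adjusted p 1.08e-06) and -1.05 under vehicle (adjusted p 2.2e-06). Slc8a1, the sodium-calcium exchanger NCX1, which is also a connecting tubule marker, was at 57.8 ± 8.85 and 51.9 ± 18.1 CPM in BPH/2J Cmpd17b and vehicle mice, against 137 ± 18.9 and 115 ± 11.4 CPM in BPN/3J Cmpd17b and vehicle mice. Its strains did not overlap in either arm (log2 fold changes -1.25 and -1.15, edgeR adjusted p 0.000378 and 0.000677). Wnk2, Slc12a2, Slc12a7 and Slc8a1 kept their calls in both arms in all 18 refits with a library left out. Slc5a1, a glucose cotransporter of the late proximal tubule, was lower averaged over arms (-0.39, edgeR adjusted p 0.0116), Slc4a4, the basolateral bicarbonate cotransporter, was at -0.55 (adjusted p 0.0587), and Slc34a1, Slc5a2 and Slc13a3 of the proximal tubule were at -0.05, 0.16 and 0.22 and did not pass.

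Chp1, a binding partner of NHE3, had 110.7, 81.9, 113 and 42.0 CPM in BPH/2J Cmpd17b and 103, 93.95, 50.2, 77.8 and 65 CPM in BPH/2J vehicle mice, against 169.7, 161, 156, 166 and 111 CPM in BPN/3J Cmpd17b and 155, 150.1, 163.5 and 138 CPM in BPN/3J vehicle mice. The strains were apart under vehicle and overlapped under Cmpd17b. Its log2 fold changes were -0.81 under Cmpd17b (edgeR adjusted p 0.0369, lost in 6 of 18 refits) and -0.96 under vehicle (adjusted p 0.012). Of the other 5 NHE3 partners, Nherf2, a scaffold of NHE3, was higher under vehicle (0.64, edgeR adjusted p 0.0115) and averaged over arms (0.53, adjusted p 0.00179), and Ezr, the ezrin gene, was lower averaged over arms (-0.17, adjusted p 0.0377, lost in 10 of 18 refits). Nherf1, Pdzk1 and Dpp4 did not pass, with averaged values of -0.16, -0.05 and 0.13.

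Of the 9 sodium pump genes other than Atp1b1, 3 were called averaged over arms, where 23.6% of all genes were, and all 3 were higher in BPH/2J: Atp1b2 (0.38, edgeR adjusted p 0.0294), Atp1b3 (0.32, adjusted p 0.0082) and Fxyd5 (0.83, adjusted p 0.0167). Atp1b2 and Atp1b3 encode other beta subunits, and Fxyd5 a small protein that binds the pump. Their means over the 18 libraries were 6.05 CPM for Atp1b2, 79.6 CPM for Atp1b3 and 7.72 CPM for Fxyd5. Atp1b2 stood at 0.07 under Cmpd17b (edgeR adjusted p 0.838) and 0.68 under vehicle (adjusted p 0.0135), and its interaction did not pass (-0.61, adjusted p 1, unadjusted p 0.0197). Its averaged call was lost in 4 of 18 refits, and Fxyd5, at 18.6 CPM highest in BPH/2J Cmpd17b replicate 5, had a log2 fold change of 0.41 (edgeR adjusted p 0.113) without the 3 libraries of lowest TMM factor. Without TMM scaling Atp1b2 and Atp1b3 did not pass (edgeR adjusted p 0.181 and 0.173). The gamma subunit gene Fxyd2 and Fxyd4 did not pass (0.40 and 0.29, adjusted p 0.151 and 0.428).

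Sgk1, the aldosterone-induced kinase that keeps ENaC at the membrane, had 23.9, 23.8, 31.1 and 24.3 CPM in BPH/2J Cmpd17b and 31.0, 35.9, 34.3, 51.4 and 50.4 CPM in BPH/2J vehicle mice, and 31.3, 48.3, 54.2, 32.2 and 39.9 CPM in BPN/3J Cmpd17b and 29.5, 39.98, 28.1 and 49.7 CPM in BPN/3J vehicle mice. The treated BPH/2J mice lay below every treated BPN/3J mouse, and 1 of them overlapped the BPH/2J vehicle range. The strain difference under Cmpd17b passed (log2 fold change -0.68, SE 0.207, edgeR adjusted p 0.0437, lost in 8 of 18 refits, in limma-voom at 0.0573 and without the 3 libraries of lowest TMM factor at 0.0801), while that under vehicle was 0.14 (adjusted p 0.706). The interaction, which tests whether the 2 differ, did not pass (-0.82, SE 0.291, edgeR adjusted p 1, unadjusted p 0.0115). Nor did the effect of Cmpd17b in BPH/2J (-0.65, SE 0.207, edgeR adjusted p 0.927, unadjusted p 0.00539). An unadjusted p under 0.05 was found for 3.22% of all genes in the interaction and 3.7% in BPH/2J. Of the other aldosterone and ENaC regulators, Nr3c1, the glucocorticoid receptor gene (-0.41, edgeR adjusted p 0.0219), and Furin, a protease that cleaves ENaC (-0.29, adjusted p 0.0239), were lower averaged over arms. Both calls were lost without the 3 libraries of lowest TMM factor (-0.27 for Nr3c1 and -0.28 for Furin, edgeR adjusted p 0.0882 and 0.0523), and that of Furin in 1 of 18 refits. Hsd11b2, Usp2, Fkbp5 and Prss8, another ENaC-activating protease gene, did not pass, with averaged log2 fold changes of 0.09, 0.06, -0.33 and -0.11.

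Among the 10 potassium and chloride partners, Kcnma1, the BK channel gene, was called higher averaged over arms (0.60, edgeR adjusted p 0.0468), a call lost in 12 of 18 refits and without the 3 libraries of lowest TMM factor (adjusted p 0.0608). Kcnj1 (the ROMK channel) and Slc26a4 (pendrin) did not pass, at 0.09 and -0.39 (edgeR adjusted p 0.693 and 0.0596).

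**Figure D5:**
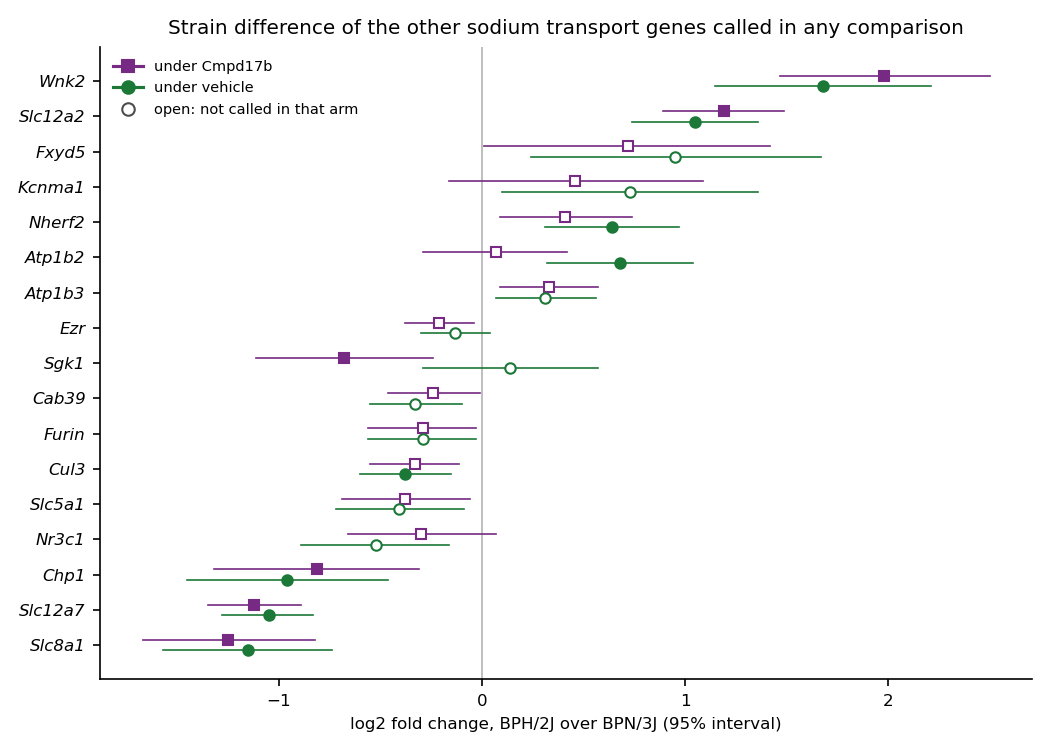
Log2 fold change, BPH/2J over BPN/3J, with 95% intervals (horizontal axis) of the 17 other pathway genes called in any comparison, under Cmpd17b (squares) and under vehicle (circles). Filled symbols passed edgeR's test in that arm; Wnk2, Slc12a2, Slc12a7, Slc8a1 and Chp1 passed in both.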

How the data were processed

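The authors deposited 1 table of estimated counts (expected counts) per gene for 19 kidney libraries, and 4.63% to 10.1% of each library's values were fractional. The submitters' processing notes name Trim Galore 0.6.7, STAR 2.7.9a and the mouse build GRCm39 (mm39). Which tool counted reads, on which annotation and strand, is not given in the sources used here, so reads of overlapping genes on opposite strands cannot be told apart. Counts were rounded to whole numbers.

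Genes were tested with edgeR 4.0.16 in R 4.3.3 (quasi-likelihood F-test, robust fit, TMM factors of 0.811 to 1.11, filterByExpr with a minimum count of 10 and a minimum total of 15) in 1 fit of 18 libraries and 4 groups with no covariate. P-values were adjusted by Benjamini and Hochberg over all 16421 genes, with calls made at an adjusted p below 0.05. Sampling depth was 21400119 to 40998662 counts per library, and the common biological coefficient of variation was 0.251. Averaged comparisons are the mean of both arms or strains in that fit. Intervals are 95% intervals of the fitted fold. Replicates are separate animals per the labels, numbered here in accession order.

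Ratios within a library used CPM plus 0.1 and the geometric mean of the markers. They were compared by two-sided exact permutation tests (126 relabelings per pair of groups, adjusted over 52 tests, or 15876 over both arms, adjusted over 13). Correlations used log2 CPM (prior count 2) with group means removed and 100000 permutations within groups, over 6 pairs. The members, lists and rules were chosen with earlier results of these data known. All 9 members are named, every listed pathway gene called in any comparison, up to 4 others per list with the highest mean CPM, and the 3 genes most like each member among genes (without those named Gm or Rik) averaging 3 or more on the log2 CPM scale. A few of the genes so named, and 1 of the 13 ratios, are not reported here, and they stayed in every fit and adjustment. Exon lengths came from GENCODE annotation of GRCm38 and were used for lengths only. Alternatives were all 19 libraries, DESeq2 1.42.0, limma-voom (limma 3.58.1), DESeq2 size factors, no TMM, TMM without mitochondrial genes, no filter, a fit without robust estimation, a fit of only the 2 groups in question, summed markers, a pseudocount of 1 and leaving out each library. The comparison of ratios over both arms, leaving out single markers and leaving out the 3 libraries with the lowest TMM factors were added after the data had been seen. The refit without those 3 libraries was made for single genes and not for ratios. The edgeR test was checked on simulated data for the strain comparison under vehicle. The permutation tests of ratios and correlations were not checked in this way. Figures were drawn with matplotlib 3.10.9.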

Additional observations from a re-analysis of the deposited data

Results flagged for a closer look

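Of the 36 sets of 1 member in 1 group, 4 held a library far from the others by Dixon's test, where chance alone gives about 1 in 20. Slc9a3 was at 186 CPM in BPH/2J vehicle replicate 1, and the nearest of its group at 139 CPM. Wnk1 was at 188 CPM in BPN/3J Cmpd17b replicate 5, and the nearest of its group at 287 CPM. In BPN/3J vehicle replicate 4, Wnk1 was at 215 CPM and Wnk4 at 111 CPM, and the nearest of that group at 264 CPM and 148 CPM. BPN/3J Cmpd17b replicate 5 and BPN/3J vehicle replicate 4 each had the lowest TMM factor and the highest mitochondrial share of their group.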

How the results depend on the processing

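No paired analysis was possible because the labels give no replicate numbers shared between groups. In each arm, in each strain and for the interaction, the count of members called stayed at 0 under every alternative run. Averaged over arms, the count of members called by strain, 1, became 3 in DESeq2 and in limma-voom. Among all genes, DESeq2 called 4526 in that comparison and limma-voom 3734, beside 3876 in edgeR (23.6% of all tested genes). The count of members became 0 with no filter and 0 with all 19 libraries, and ran from 0 to 3 with single libraries left out. With all 19 libraries, edgeR called 566 genes by strain under vehicle in place of 1766, 2396 averaged over arms in place of 3876, and 0 in the comparison of Cmpd17b in BPH/2J, in that averaged over strains and in the interaction, in place of 27, 11 and 5. DESeq2 called 41 for Cmpd17b in BPH/2J, 6 in BPN/3J, 26 averaged over strains and 15 for the interaction. Without the 3 libraries with the lowest TMM factors the last 2 counts were 5 and 1, and with single libraries left out they ran from 5 to 12 and from 1 to 6. Pathway genes called by strain were 4 under vehicle and 9 averaged over arms with all 19 libraries, and 14 under vehicle without the 3 libraries. Leaving out single libraries gave 6 to 13 under vehicle. No TMM moved the median strain difference of all genes under Cmpd17b to -0.13 from 0.01.

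Members not called changed sign as follows. With all 19 libraries the strain differences under Cmpd17b were -0.09 for Wnk4 and, of the called genes, 0.15 for Slc8a1. The effects of Cmpd17b in BPH/2J were then -0.23 for Slc9a3, -0.18 for Slc12a3, -0.3 for Scnn1a, -0.07 for Scnn1b, -0.2 for Scnn1g and -0.25 for Wnk4. Without the 3 libraries, the strain differences under Cmpd17b were 0 for Slc9a3, 0.2 for Slc12a1 and 0.13 for Atp1b1, those under vehicle 0.17 for Slc12a1 and 0.03 for Atp1b1, those averaged 0.18 for Slc12a1 and 0.08 for Atp1b1, and the effect in BPH/2J was -0.07 for Wnk4. No TMM gave effects in BPH/2J of -0.04 for Scnn1a and -0.03 for Wnk4 and in BPN/3J of 0.03 for Wnk4, and no filter gave 0 for Scnn1a in BPH/2J. With single libraries left out, the strain differences under Cmpd17b ran from -0.09 to 0.07 for Slc9a3, -0.29 to 0.2 for Slc12a1 and -0.13 to 0.14 for Atp1b1. Under vehicle they ran from -0.55 to 0.03 for Slc12a1, and averaged from -0.13 to 0.01 for Atp1b1. The effect in BPH/2J ran from -0.48 to 0.06 for Slc12a1, -0.04 to 0.36 for Slc12a3, -0.04 to 0.1 for Scnn1a, -0.2 to 0.07 for Atp1b1 and -0.14 to 0.13 for Wnk4. The effect in BPN/3J ran from -0.15 to 0 for Scnn1a, -0.09 to 0.07 for Scnn1g and -0.1 to 0.04 for Wnk4.

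For log2 ratios by strain, all 19 libraries gave under Cmpd17b -0.19 for Scnn1b over principal cell markers, -0.22 for Scnn1b over Scnn1a, -0.27 for Scnn1g over Scnn1a and 0.26 for Wnk1 over Wnk4. Over both arms they gave -0.12 for Scnn1g over Scnn1a, and the differences of Scnn1b over Scnn1a (0.18, adjusted p 0.896) and Wnk1 over Wnk4 (-0.17, adjusted p 0.896) no longer passed. The library added there holds 1 count of Scnn1b and 17 of Scnn1a. Summed markers gave 0.19 under Cmpd17b, 0.18 under vehicle and 0.19 over both arms for Slc12a3, and -0.14 under Cmpd17b and -0.05 over both arms for Scnn1b. With single libraries left out, Slc9a3 over its markers ran from -0.12 to 0.06 under vehicle, Slc12a3 over its markers from -0.35 to 0.01 under Cmpd17b, and Slc12a3 over Slc12a1 from -0.56 to 0.17 under vehicle. Scnn1g over Scnn1a ran from -0.05 to 0.25 under Cmpd17b, -0.13 to 0.21 under vehicle and -0.04 to 0.14 over both arms. Apart from the settings that leave out libraries, the cause of these changes was not tested. What depth and the number of mice each limit was not told apart.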
